A study of Cricetulus griseus with 16 samples.

Results

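Hnrnpdl, Hnrnpd, Hnrnph1, Hnrnpa2b1, Dhx9, Fubp1, Pspc1, Sfpq and Nono encode nuclear proteins that bind RNA. The first 4 belong to the heterogeneous nuclear ribonucleoprotein (hnRNP) family and the last 3 to paraspeckles, while Dhx9 and Fubp1 were grouped with them. The 9 members were chosen on measured values, because Hnrnpdl, Dhx9, Pspc1 and Fubp1 shifted in these libraries at 40 °C 6 h, and no threshold was stated for the choice. All 9 names were found among the 20824 genes of the count table. Their values at 40 °C 6 h are therefore given as a description, with no test.

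The measurements came from RNA-seq of Chinese hamster ovary (CHO) cells of the line ATCC CCL-61, an established epithelial-like line, in 16 libraries that the labels call biological repeats. Unheated cells (37 °C) gave 4 libraries, named A to D, and so did each of the heat treatments, which lasted 1 h or 6 h with 40 °C and 1 h with 42.5 °C, written below as 40 °C 1 h, as 40 °C 6 h and as 42.5 °C. The same plated line, with no other treatment, was used in every group, and the design asks how the dose of heat, set by temperature and time, alters gene expression. A library held between 10504192 and 14668365 counts, at which 3 counts correspond to between 0.205 and 0.286 CPM (counts scaled to library size), a limit set by counting alone.

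As background, hnRNPs coat nascent transcripts in the nucleus and take part in their splicing, export, translation and decay, and several of them regulate their own transcripts through exons that lead to nonsense-mediated decay. Paraspeckles are nuclear bodies built on the long noncoding RNA Neat1, and the DBHS proteins Sfpq, Nono and Pspc1, which pair with each other as dimers, are among their core proteins. Dhx9 and Fubp1 bind nucleic acids in the same compartment, as an RNA helicase and as a protein that binds single-stranded DNA and intronic RNA.

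Library D at 37 °C stood apart from the other controls before any gene was considered. Its log2 expression differed from the mean of the other controls with an SD of 0.475 across genes, against 0.167 to 0.181 for libraries A, B and C. The study's methods leave out 1 control library without naming it, and the control counts in its supplementary table of changed genes are those of A, B and C. D was therefore left out here of the tests and the group means unless stated. For the members, D was above A to C for Hnrnpdl, Hnrnpd, Hnrnpa2b1 and Sfpq, below them for Hnrnph1, Dhx9, Fubp1 and Nono, and within their range for Pspc1. On the log2 scale the largest of these gaps from the mean of A to C were for Dhx9 (-0.32) and Hnrnpd (0.28). Hnrnpd was at 412 CPM in D against 336 to 347 in A to C, and Dhx9 at 519 CPM against 616 to 686. In CPM the largest gap was for Hnrnpa2b1, at 1194 in D against 1002 to 1041. Log2 fold changes of the members against 37 °C are therefore given also with all 4 controls. No pair of libraries within a group agreed within sampling noise.

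The heat labels were checked on heat-responsive genes outside the members. The co-chaperone gene Dnajb1 averaged 28.4 CPM at 37 °C, 87.5 at 40 °C 1 h, 44.6 at 40 °C 6 h and 394 at 42.5 °C, and the HSP110 gene Hsph1 averaged 324, 683, 752 and 2530 CPM in the same order, D left out. Control D lay above A to C for both, with Dnajb1 at 32.6 CPM against 26.3 to 30.2 and Hsph1 at 340 CPM against 320 to 328. It also lay above them for 2 other genes of this check. Hspb1 was at 103 CPM in D against 49.5 to 56.7 in A to C, above 2 libraries at 40 °C 1 h, and Hspa5 at 2606 CPM against 2019 to 2156. For the cell line, Vim lay between 1820 and 2680 CPM, and Actb between 3210 and 4550 CPM. St6gal1, a sialyltransferase gene silent in CHO cells, had 0 counts in every library, and Gapdh and Ldha were not found by name. The granulosa cell genes Foxl2, Cyp19a1 and Fshr were at 0 and Amh lay between 1.9 and 7.12 CPM. The 13 mitochondrially encoded genes took 2.23 to 3.06% of counts in controls A to C, 2.39 to 3.12% at 40 °C 1 h, 2.69 to 3.54% at 40 °C 6 h and 3.55 to 3.8% at 42.5 °C, and the part of this difference in the values below was not tested. The 9 members together took 0.398 to 0.406% of counts in controls A to C, 0.389 to 0.402% at 40 °C 1 h, 0.349 to 0.365% at 40 °C 6 h and 0.391 to 0.404% at 42.5 °C.

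Levels are in CPM with TMM scaling, and differences are log2 fold changes with their standard error (SE). A gene passed the test at a Benjamini-Hochberg adjusted p under 0.05 over all genes in edgeR's quasi-likelihood test, and was a differentially expressed gene (DEG) if its fold change was also at least 1.5 either way. Members were tested at 40 °C 1 h and at 42.5 °C 1 h against 37 °C, comparisons that share their 3 control libraries with each other and with the comparison that chose the members. A control level that was high or low by chance for a chosen gene would shift all of these comparisons the same way. Members were also tested between 42.5 °C and 40 °C at 1 h, which shares no library with the comparison that chose them. The choice was nevertheless made with earlier results of these data known. All 9 members passed the filter on low counts in each comparison, with 404 to 16126 counts per library. Because whole cultures were sequenced, fewer cells that express a gene and less of its RNA per cell cannot be told apart. The treatment of reads with several mapping places is not given in the sources used here, so members of families with processed pseudogenes, such as Hnrnpa2b1, carry that uncertainty.

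At 40 °C 1 h, 2 of the 9 members passed the test, Fubp1 as higher and Hnrnpdl as lower, where 1.07% of 10494 genes passed as higher and 0.572% as lower. Both were among the 4 genes named in the choice and lay on the same side as at 40 °C 6 h. That comparison used the same 3 controls, so 2 of 9 is not read as an excess over all genes. At 42.5 °C 1 h, 3 members passed against 37 °C, Hnrnpa2b1 and Sfpq as higher and Hnrnpdl as lower, where 20.8% of 10470 genes passed as higher and 22.3% as lower, so that the members' share was near that of all genes. Between 42.5 °C and 40 °C at 1 h, 2 members passed, Dhx9 as higher at 42.5 °C and Fubp1 as lower, where 16.4% of 10441 genes passed as higher and 19.6% as lower. The median log2 fold change of the members was -0.03, 0.05 and 0.08 in these comparisons, and that of all genes was 0.000357, -0.00167 and 0.00293. By edgeR, 0 of the 9 members were DEGs in any of these comparisons, where 0.334, 7.51 and 5.27% of all genes were. DESeq2 also called 0 members as DEGs, while 2, 3 and 2 members passed its adjusted p alone. At an unadjusted p under 0.05 in edgeR the counts were 3, 3 and 4 members, beside 14.8, 50.7 and 45.9% of all genes, and 0 of these members had a fold change of 1.5, and the largest fold changes either way were 1.3, 1.22 and 1.23.

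At 40 °C 6 h, the condition on which the members were chosen, 4 of 9 had a fold change of at least 1.5 against 37 °C, as had 3.78% of 10499 genes. Hnrnpdl, Pspc1 and Dhx9 were lower and Fubp1 was higher. Counted from the lowest log2 fold change of all tested genes, Hnrnpdl was at place 14, Pspc1 at place 43 and Dhx9 at place 85, and Fubp1 was at place 127 from the highest.

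**Figure D1:**
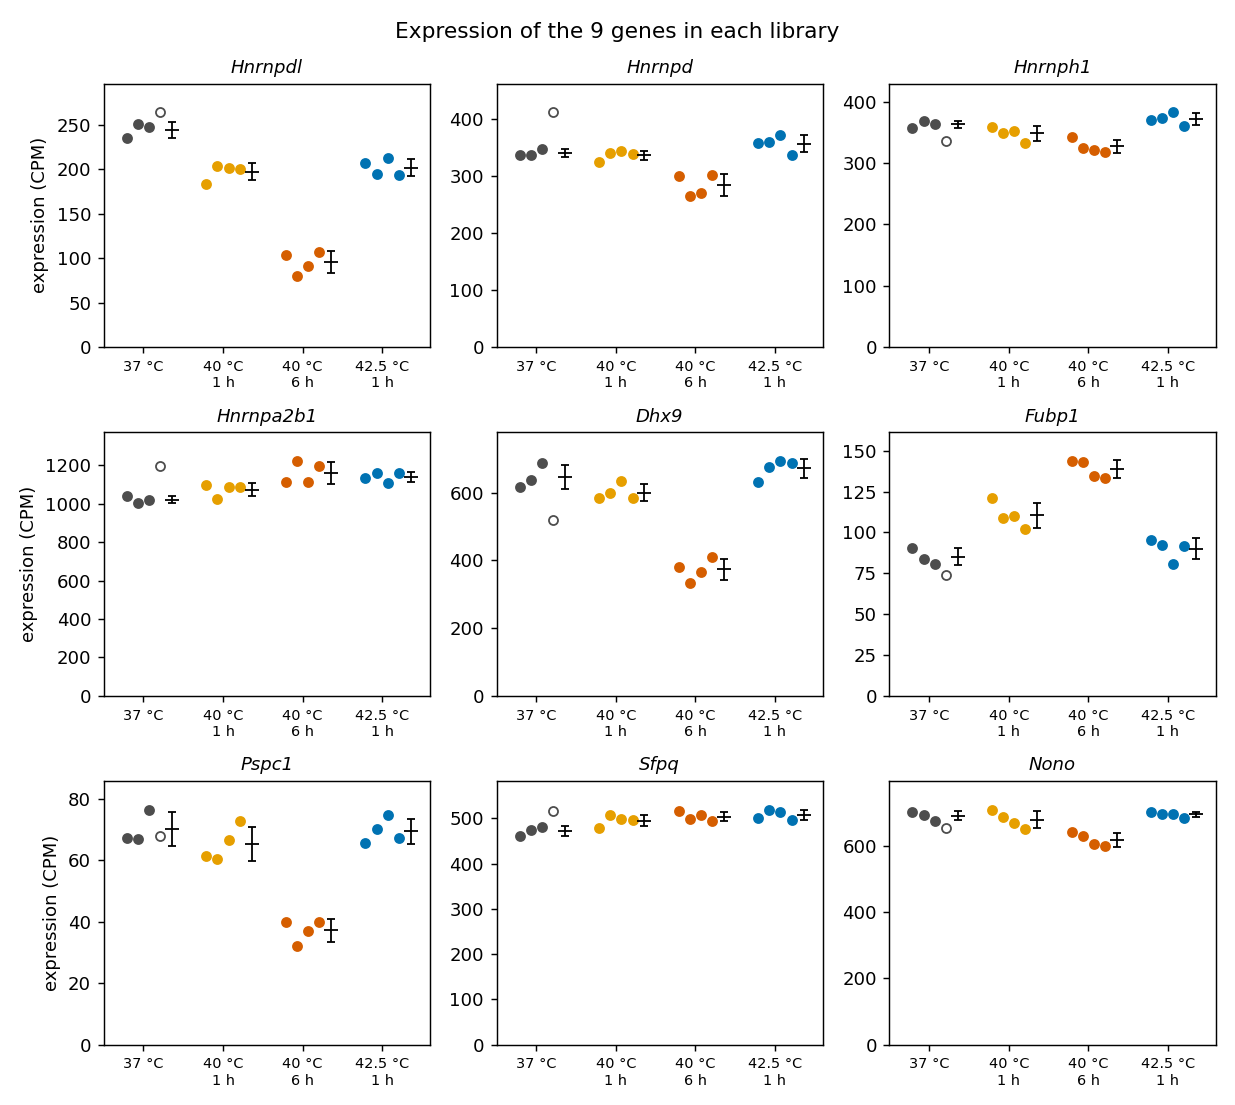
Expression of each member in every library, in CPM scaled by TMM, with 1 panel per gene and a vertical axis that starts at 0. Filled points are libraries A to D from left to right, the open point is 37 °C library D, and the bars are the mean and SD without it. Hnrnpdl, Dhx9 and Pspc1 are lowest and Fubp1 is highest in the 4 libraries at 40 °C 6 h.

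Hnrnpdl and Hnrnpd are closely related hnRNPs of the AUF1 type, and Hnrnpd (AUF1) binds AU-rich elements in mRNAs and affects their decay. Hnrnpdl (ENSCGRG00001010960) was at 234.5, 251 and 247 CPM in libraries A, B and C at 37 °C and at 264 CPM in library D. It was at 183, 203.5, 201 and 200.2 CPM in libraries A to D at 40 °C 1 h, and at 207, 194, 212 and 193 CPM at 42.5 °C 1 h. Every library of both 1 h treatments lay below every control library, D included, and the 2 treatments overlapped each other. After 6 h at 40 °C the libraries were at 103.5, 79.7, 91.2 and 107 CPM, well below all the others. From the highest group to the lowest, Hnrnpdl had a mean and SD of 244 ± 8.74 CPM at 37 °C (n = 3), and with n = 4 each of 202 ± 9.41 at 42.5 °C, 197 ± 9.48 at 40 °C 1 h and 95.4 ± 12.6 at 40 °C 6 h.

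Hnrnpdl fell by 0.31 (log2, SE 0.046, adjusted p = 0.00324 by edgeR) at 40 °C 1 h, with a 95% interval of -0.41 to -0.21. Set against all 4 controls, its log2 fold change was -0.34 (SE 0.059) and did not pass (adjusted p = 0.116 by edgeR), with values from 1.08e-06 to 0.116 over 14 alternatives. Library D held the highest Hnrnpdl level of the 4 controls. At 42.5 °C Hnrnpdl fell by 0.28 (SE 0.044, adjusted p = 0.000117 by edgeR), and with all 4 controls by 0.30 (SE 0.056, adjusted p = 0.0059), the highest value over 14 alternatives that began at 4.09e-07. The 2 treatments of 1 h did not differ detectably in Hnrnpdl, with a value of 0.03 between 42.5 °C and 40 °C (SE 0.046, adjusted p = 0.681 by edgeR). As a description, Hnrnpdl had a log2 fold change of -1.36 at 40 °C 6 h against 37 °C, a fold change of 0.39, and of -1.05 against 1 h at the same temperature. The first of these was -1.39 with all 4 controls.

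Hnrnpd (ENSCGRG00001014634) lay between 336 and 347 CPM in controls A to C, between 325 and 343 at 40 °C 1 h and between 337 and 371 at 42.5 °C. These 3 groups overlapped, while the libraries at 40 °C 6 h, between 265 and 302 CPM, lay below all of them. Hnrnpd did not pass in any tested comparison, with log2 fold changes of -0.02, 0.06 and 0.08 and adjusted p of 0.899, 0.229 and 0.132 by edgeR at 40 °C, at 42.5 °C and between them, and the values against all 4 controls were -0.09 and 0.00 for Hnrnpd. With the replicate letter as a block, Hnrnpd passed at 42.5 °C against 37 °C (0.09, adjusted p = 0.0429 by edgeR). Without library D at 42.5 °C, the difference between 42.5 °C and 40 °C for Hnrnpd was 0.11 and passed (adjusted p = 0.0388 by edgeR), with values from 0.0388 to 0.291 over 14 alternatives. Its log2 fold change at 40 °C 6 h was -0.26 against 37 °C, and -0.34 with all 4 controls.

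The ratio of both AUF1-type genes within a library does not depend on scaling between libraries. For each 100 counts of Hnrnpd there were 69.7, 74.8 and 71.1 counts of Hnrnpdl in controls A, B and C and 64.2 in D. There were 56.3, 60.0, 58.7 and 59.4 at 40 °C 1 h, 57.7, 54.0, 57.2 and 57.4 at 42.5 °C, and 34.5, 30.1, 33.7 and 35.6 at 40 °C 6 h. All heated libraries lay below all controls, and those of 6 h lay below those of 1 h. On the log2 scale the ratio was lower than at 37 °C by a difference of -0.30 at 40 °C 1 h and of -0.35 at 42.5 °C, each with p = 0.0571 in a two-sided exact permutation test, the smallest that 4 libraries against 3 allow, and an adjusted p of 0.171 over 6 tests. These differences were -0.25 and -0.31 with all 4 controls. Each exact permutation p was then 0.0286, the smallest that 4 libraries against 4 allow, and did not pass after adjustment. Between 42.5 °C and 40 °C at 1 h the ratio differed by -0.05 (exact permutation p = 0.143, adjusted p = 0.286). With 1 library left out, this difference ran from -0.0698 to -0.0285.

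Of the other hnRNPs, Hnrnph1 binds G-rich sequences and regulates splicing, and Hnrnpa2b1 binds RNA in splicing, transport and microRNA sorting. Hnrnph1 (ENSCGRG00001013538) lay between 357 and 369 CPM in controls A to C, between 333 and 359.7 at 40 °C 1 h, between 319 and 343 at 40 °C 6 h and between 360.0 and 384 at 42.5 °C. Each group overlapped its neighbour in the order of the means, which ran from 42.5 °C over 37 °C and 40 °C 1 h down to 40 °C 6 h. In the tested comparisons its log2 fold changes were -0.06, 0.03 and 0.09, with adjusted p of 0.539, 0.577 and 0.0872 by edgeR. Against all 4 controls Hnrnph1 had -0.03 at 40 °C 1 h, -0.13 at 40 °C 6 h and 0.07 at 42.5 °C. Without library D at 42.5 °C, the difference of Hnrnph1 from 40 °C at 1 h was 0.11 and passed (adjusted p = 0.0495 by edgeR), with values from 0.0495 to 0.208 over 14 alternatives.

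Hnrnpa2b1 (ENSCGRG00001022416) was at 1041, 1002 and 1019 CPM in controls A, B and C and at 1194 CPM in D. At 42.5 °C it was at 1131, 1160, 1106 and 1160 CPM, and at 40 °C 1 h at 1096, 1022, 1087 and 1085 CPM. The libraries at 42.5 °C lay above controls A to C and above all libraries at 40 °C 1 h, but below control D. After 6 h at 40 °C Hnrnpa2b1 was at 1111, 1223, 1113 and 1193 CPM, overlapping 42.5 °C. Hnrnpa2b1 rose by 0.15 in log2 units at 42.5 °C against 37 °C (SE 0.036, adjusted p = 0.00336 by edgeR). Including control D, the value was 0.10 and did not pass (adjusted p = 0.284 by edgeR), with values from 0.000137 to 0.284 over 14 alternatives. Neither 40 °C 1 h against 37 °C (0.07, adjusted p = 0.439 by edgeR, and 0.01 with all 4 controls) nor 42.5 °C against 40 °C at 1 h (0.08, adjusted p = 0.101) passed for Hnrnpa2b1, so a difference between the temperatures is not shown. As a description, its log2 fold change at 40 °C 6 h was 0.18, and 0.12 with all 4 controls.

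Among the DBHS proteins, Pspc1 differed from its partners Sfpq and Nono in the size of its value at 40 °C 6 h, on which it had been chosen. Pspc1 (ENSCGRG00001018368) was at 67.1, 66.7 and 76.5 CPM in controls A, B and C and at 67.8 CPM in D. It was at 61.5, 60.3, 66.7 and 72.6 CPM at 40 °C 1 h, and at 65.7, 70.2, 74.8 and 67.1 CPM at 42.5 °C. These 3 groups overlapped, and control C held the highest value. The libraries at 40 °C 6 h were at 40.1, 32.0, 36.9 and 39.8 CPM, all below every other library, with a mean of 37.2 ± 3.76 (SD, n = 4), where the controls had 70.1 ± 5.53 (SD, n = 3). Pspc1 did not pass at 40 °C 1 h (log2 fold change -0.10, SE 0.068, adjusted p = 0.533 by edgeR), nor at 42.5 °C (-0.02, SE 0.062, adjusted p = 0.82), nor between them (0.08, adjusted p = 0.32), and the first 2 values were -0.09 and 0.00 with all 4 controls. The first was -0.038 without control C and -0.158 without library D at 40 °C 1 h, and the second was 0.045 without control C. With the replicate letter as a block, Pspc1 passed at 40 °C 1 h (-0.16, adjusted p = 0.0338 by edgeR). Its log2 fold change at 40 °C 6 h was -0.92 against 37 °C, or a fold change of 0.53, and -0.81 against 1 h, with -0.91 against all 4 controls.

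Sfpq, a splicing factor rich in proline and glutamine that also acts in transcription and DNA repair, had its lowest group at 37 °C. Sfpq (ENSCGRG00001011698) was at 460.0, 474.5 and 481 CPM in controls A, B and C and at 516 CPM in D. It was at 500.4, 519, 515 and 496 CPM at 42.5 °C, at 479, 506, 499 and 496 CPM at 40 °C 1 h and at 517, 498, 506 and 493.5 CPM at 40 °C 6 h. The libraries at 42.5 °C lay above controls A to C, while D lay among them, and each group overlapped its neighbour in the order of the means. Sfpq rose by 0.10 at 42.5 °C against 37 °C (SE 0.037, adjusted p = 0.0427 by edgeR), a fold change below that of the other members that passed. That call was lost with all 4 controls (0.08, adjusted p = 0.337 by edgeR) and without a filter on low counts (adjusted p = 0.0683). It was also lost on leaving out 37 °C A (adjusted p = 0.164), 37 °C B (0.0908), 42.5 °C B (0.0898) or 42.5 °C C (0.0827), with values from 0.0128 to 0.337 over 14 alternatives. Sfpq did not pass at 40 °C 1 h (0.07, adjusted p = 0.436 by edgeR, and 0.04 with all 4 controls) or between 42.5 °C and 40 °C (0.03, adjusted p = 0.557).

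Nono, which binds RNA and DNA as a partner of Sfpq, lay between 676 and 702 CPM in controls A to C, between 649 and 709 at 40 °C 1 h, between 683.5 and 702 at 42.5 °C and between 598 and 642 at 40 °C 6 h. The first 3 of these groups overlapped and that of 6 h lay below them. Nono (ENSCGRG00001000065) had log2 fold changes of -0.03, 0.00 and 0.03 in the tested comparisons, with adjusted p of 0.82, 0.996 and 0.589 by edgeR. At 40 °C 6 h its log2 fold change was -0.16, beside 0.09 for Sfpq and -0.92 for Pspc1. Against all 4 controls Nono had -0.01 at 40 °C 1 h, 0.03 at 42.5 °C and -0.14 at 40 °C 6 h, where Sfpq had 0.06.

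The share of Pspc1 among the DBHS counts of a library was followed in the same way. It was 5.46, 5.40 and 6.20% in controls A, B and C and 5.48% in D, then 4.92, 4.81, 5.41 and 5.96% at 40 °C 1 h, and 5.18, 5.46, 5.82 and 5.39% at 42.5 °C. These groups overlapped, and the libraries at 40 °C 6 h, at 3.34, 2.76, 3.22 and 3.52%, lay below them. The differences in percentage points were -0.41 between 40 °C 1 h and 37 °C (two-sided exact permutation p = 0.343, adjusted p = 0.514), -0.23 between 42.5 °C and 37 °C (exact permutation p = 0.457, adjusted p = 0.549) and 0.18 between 42.5 °C and 40 °C at 1 h (exact permutation p = 0.571, adjusted p = 0.571). Each of these differences of the Pspc1 share depended on single libraries. The first was -0.153 without control C and -0.638 without library D at 40 °C 1 h, and the second was 0.0298 without control C and -0.368 without control B. The third was 0.0283 without library B at 40 °C 1 h and 0.411 without library D there.

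**Figure D2:**
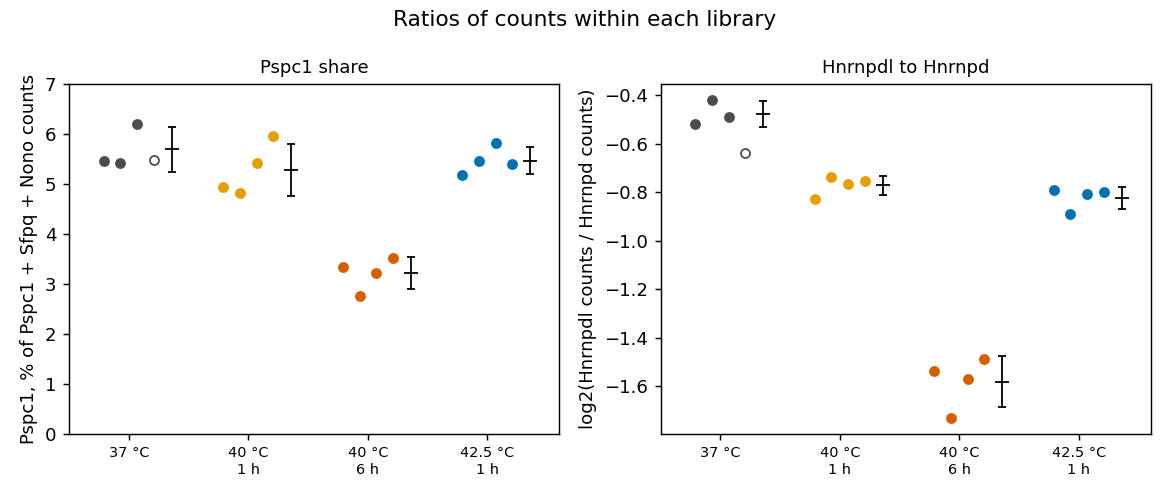
Ratios of counts within each library, with the Pspc1 share of the DBHS counts in % on the left and log2 of Hnrnpdl counts over Hnrnpd counts on the right. Filled points are libraries A to D from left to right, the open point is 37 °C library D, and the bars are the mean and SD without it. The Pspc1 share lies between 4.81 and 6.20% outside the group at 40 °C 6 h, and the right panel's axis does not start at 0 because it is a log scale.

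Dhx9, also called RNA helicase A, unwinds RNA and RNA-DNA hybrids and resolves double-stranded structures in transcripts. Dhx9 (ENSCGRG00001015796) was at 616, 638 and 686 CPM in controls A, B and C and at 519 CPM in D. It was at 583, 598, 636 and 583 CPM at 40 °C 1 h and at 632, 675, 695 and 687 CPM at 42.5 °C. The groups at 42.5 °C and at 40 °C 1 h overlapped in a single library each, and both overlapped the controls. After 6 h at 40 °C Dhx9 was at 381, 335, 367 and 411 CPM, below all other libraries, control D included. Between 42.5 °C and 40 °C at 1 h, Dhx9 was higher at 42.5 °C by 0.16 (log2, SE 0.042, adjusted p = 0.00894 by edgeR), and it passed under 14 alternatives, at adjusted p of 0.00206 to 0.0297, but not in glmTreat's test against a fold change of 1.5. Against 37 °C it did not pass at 40 °C 1 h (-0.11, SE 0.047, adjusted p = 0.297 by edgeR) or at 42.5 °C (0.05, SE 0.045, adjusted p = 0.408), and with all 4 controls the value for Dhx9 was -0.04 at 40 °C 1 h and 0.13 at 42.5 °C (for the latter, adjusted p = 0.351, with values from 0.119 to 0.856 over 14 alternatives). With the replicate letter as a block, Dhx9 passed at 40 °C 1 h (-0.09, adjusted p = 0.0218 by edgeR). The value at 40 °C 6 h was -0.80 against 37 °C, a fold change of 0.576, and -0.68 against 1 h, with -0.72 against all 4 controls.

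Fubp1, the far upstream element binding protein known for activating Myc transcription and for roles in splicing, was the member with the highest log2 fold change at 40 °C, at 1 h and at 6 h alike. Fubp1 (ENSCGRG00001007103) was at 90.8, 84.0 and 80.5 CPM in controls A, B and C and at 74.0 CPM in D. It was at 121, 109, 110.3 and 102 CPM at 40 °C 1 h, and at 95.3, 92.1, 80.7 and 92.0 CPM at 42.5 °C. All libraries at 40 °C 1 h lay above all controls and above all libraries at 42.5 °C, and the last 2 groups overlapped. After 6 h at 40 °C Fubp1 was at 144, 143, 134.5 and 134 CPM, above every other library. Its order was thus 139 ± 5.51 CPM at 40 °C 6 h, 111 ± 7.64 at 40 °C 1 h and 90.0 ± 6.37 at 42.5 °C (SD, n = 4 each), then 85.1 ± 5.26 at 37 °C (SD, n = 3), with overlap between the lowest pair of neighbours.

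Fubp1 rose by 0.38 in log2 units at 40 °C 1 h (SE 0.059, adjusted p = 0.00379 by edgeR), with a 95% interval of 0.25 to 0.50 and the highest fold change of a member in a tested comparison, 1.3. Including control D, the value was 0.43 (SE 0.077) and did not pass (adjusted p = 0.127 by edgeR), with values from 1.06e-06 to 0.127 over 14 alternatives. At 42.5 °C Fubp1 did not pass against 37 °C (0.07, SE 0.059, adjusted p = 0.336 by edgeR), and the value was 0.13 with all 4 controls (adjusted p = 0.304, with values from 0.0873 to 0.688). The direct comparison of the temperatures at 1 h gave a value of -0.30 for Fubp1 at 42.5 °C (SE 0.058, adjusted p = 0.000802 by edgeR). It passed under 14 alternatives, at adjusted p of 1.89e-05 to 0.00363, but not in glmTreat's test against a fold change of 1.5. At 40 °C 6 h the log2 fold change of Fubp1 was 0.70 against 37 °C, a fold change of 1.63, and 0.33 against 1 h, with 0.75 against all 4 controls.

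**Figure D3:**
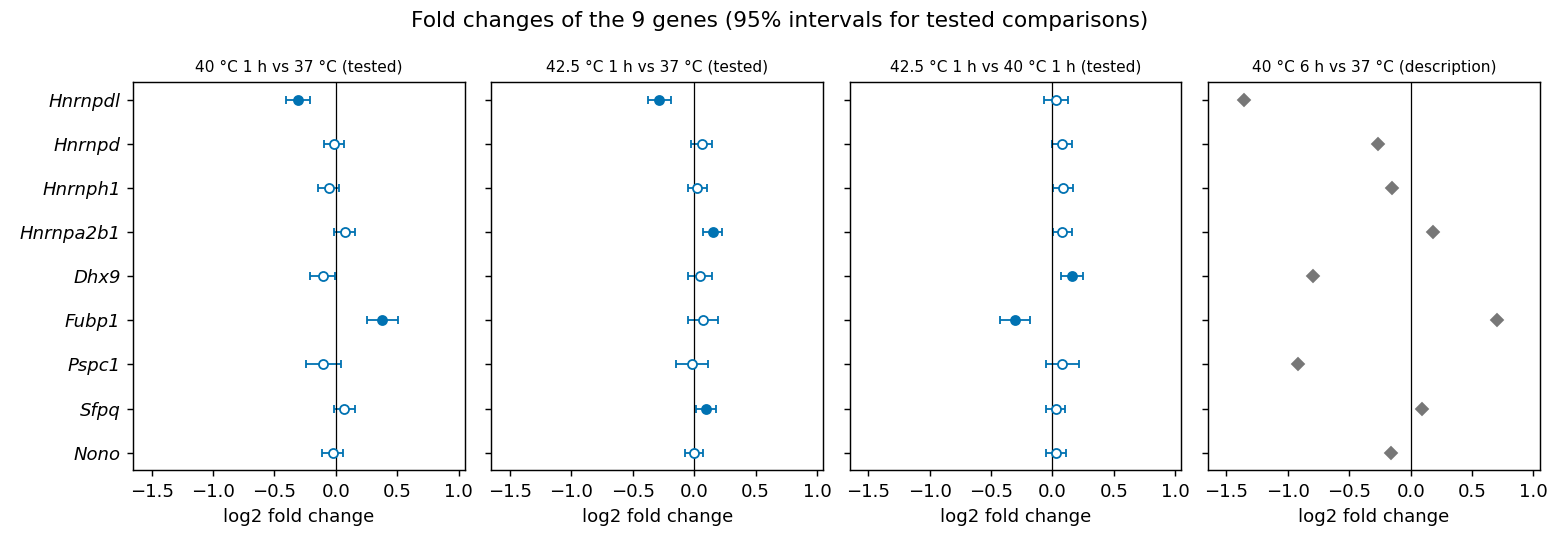
Log2 fold changes of the 9 members in 4 comparisons, with 95% intervals of edgeR's quasi-likelihood fit in the tested comparisons. Filled circles passed the test at an adjusted p under 0.05 and open circles did not, while the diamonds at 40 °C 6 h are a description without a test. The intervals are per gene and not adjusted, so the interval of an open circle can miss the line of no change. Fubp1 is at 0.38 at 40 °C 1 h, at 0.07 at 42.5 °C and at -0.30 between them.

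Genes around the members were followed in lists of the same families. Of 18 further hnRNP genes found out of 23 listed, 2 passed as higher and 6 as lower at 40 °C 6 h, where 14.7% of all genes passed as higher and 14.8% as lower, and their median log2 fold change was -0.07 against 0.00118 for all genes. At 42.5 °C 5 passed as higher and 1 as lower against 37 °C, where 20.8 and 22.3% of all genes did, and 4 as higher and 0 as lower by edgeR against 40 °C at 1 h, where 6 passed an unadjusted p under 0.05 in either direction and DESeq2 also called 4 as higher and 0 as lower, beside 16.4 and 19.6% of all genes by edgeR. Their medians there were 0.04 and 0.06. With all 4 controls 0 further hnRNP genes were higher and 2 lower at 6 h by edgeR, where 7 had an unadjusted p under 0.05, and 0 passed at 42.5 °C, where 3 had one (DESeq2 was run only without D).

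Further paraspeckle components were found for 14 of 20 names, 6 of which are also among the 18 hnRNP genes, and Neat1 was not found by name. At 40 °C 6 h 3 passed as higher and 3 as lower (14.7 and 14.8% of all genes), with 1 DEG where 3.11% of all genes were DEGs, at 42.5 °C 1 as higher and 2 as lower (20.8 and 22.3%), and between 42.5 °C and 40 °C at 1 h 3 as higher and 3 as lower (16.4 and 19.6%). Including control D, 0 paraspeckle components were higher and 2 lower at 6 h by edgeR, where 5 had an unadjusted p under 0.05, and 0 passed at 42.5 °C, where 2 had one. With DESeq2's size factors the count at 42.5 °C was 2 as higher and 2 as lower, and that between the temperatures 3 as higher and 2 as lower. Their median log2 fold changes were -0.07, -0.01 and 0.06 in these comparisons. The DEG was Zc3h6, whose log2 fold change was -1.09 (with SE 0.228, adjusted p = 0.0019 by edgeR, and 0.0437 with all 4 controls) from 13 to 39 counts per library. Cpsf6, a cleavage factor subunit, was lower at 42.5 °C than at 40 °C 1 h, with a value of -0.20 (adjusted p = 0.00067 by edgeR), and Rbm14 by -0.24 (adjusted p = 0.00581). Against 37 °C, Cpsf6 at 42.5 °C (-0.20, adjusted p = 0.00131 by edgeR) and Rbm14 at 6 h (0.27, adjusted p = 0.00408) and at 42.5 °C (-0.23, adjusted p = 0.00914) lost their calls with all 4 controls (adjusted p = 0.118, 0.0561 and 0.446).

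Other helicases of the DEAH and DExH type, relatives of Dhx9, were found for 15 of 16 names. At 40 °C 6 h 4 passed as higher and 3 as lower (14.7 and 14.8% of all genes), at 42.5 °C 4 as higher and 5 as lower (20.8 and 22.3%), and between 42.5 °C and 40 °C at 1 h 3 as higher and 5 as lower (16.4 and 19.6%). Including control D, 2 helicases were higher and 0 lower at 6 h by edgeR, where 5 had an unadjusted p under 0.05, and 2 were higher and 1 lower at 42.5 °C. The medians without D were 0.03, -0.02 and 0.06. Dhx38, a splicing helicase, fell by 0.48 at 42.5 °C (SE 0.046, adjusted p = 9.31e-07 by edgeR, and 0.0232 with all 4 controls). Dhx15 rose there by 0.22 (adjusted p = 0.000414, and 0.0155 with all 4 controls), and Dhx57 rose by 0.51 at 40 °C 6 h (adjusted p = 9.75e-05, and 0.00656 with all 4 controls). Calls lost with all 4 controls included those of Dhx32 (0.37, adjusted p = 7.89e-05, then 0.0896) and Dhx33 (-0.30, adjusted p = 0.000859, then 0.0627) at 40 °C 6 h, and of Dhx37 at 42.5 °C (-0.48, adjusted p = 0.000101, then 0.15). Dhx58, which senses viral RNA, was a DEG at both (1.17 at 6 h and 1.72 at 42.5 °C) from 5 to 34 counts per library, and DESeq2 did not call it at 6 h.

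Both relatives of Fubp1 passed as lower at 40 °C 6 h, where 14.8% of all genes did, in the opposite direction to Fubp1. Fubp3 had -0.30 (adjusted p = 0.000896 by edgeR) and Khsrp had -0.17 (adjusted p = 0.0158). At 42.5 °C Fubp3 passed as lower with -0.26 (adjusted p = 0.000296 by edgeR), where 22.3% of all genes passed as lower. None of these 3 values passed with all 4 controls (adjusted p = 0.25, 0.667 and 0.329).

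Of 10 factors of nonsense-mediated decay, 9 were found, of which 1 passed as higher and 1 as lower at 40 °C 6 h (14.7 and 14.8% of all genes). At 42.5 °C 3 passed as higher and 1 as lower, both against 37 °C (20.8 and 22.3%) and against 40 °C at 1 h (16.4 and 19.6%). Including control D, 0 decay factors were higher and 1 lower at 6 h by edgeR, where 2 had an unadjusted p under 0.05, and 1 was higher and 1 lower at 42.5 °C. The medians without D were -0.04, -0.06 and -0.03. Smg1, the kinase of Upf1, rose by 0.33 at 42.5 °C (SE 0.045, adjusted p = 3.66e-05 by edgeR, and 0.204 with all 4 controls) and was higher than at 40 °C 1 h by 0.35 (adjusted p = 8.71e-05). Smg9 fell by 0.52 at 40 °C 6 h (adjusted p = 3.62e-05, and 0.00361 with all 4 controls), while Smg5, higher there by 0.17 (adjusted p = 0.00709), lost its call (0.144).

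At 40 °C 1 h, 1.64% of 10494 genes passed by edgeR and 14.8% had an unadjusted p under 0.05. Of these 5 lists 0 genes passed, with 1, 3, 4, 1 and 1 genes at an unadjusted p under 0.05 in the order given. DESeq2 called 1, 1, 0, 0 and 0 genes there in the same order.

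The genes whose pattern over the 15 libraries was most like that of a member were taken by the root mean square (RMS) difference of centred log2 CPM among 9411 genes. The 15 libraries include the 4 at 40 °C 6 h, on which the members were chosen, so the likeness of Dhx9, Pspc1 and Hnrnpdl to each other can follow from that choice and is only a description. For Dhx9 the nearest gene was Pspc1, and for Pspc1 it was Dhx9, at an RMS difference of 0.0896. Next to Dhx9 came Tatdn1 at 0.0903 and Slc7a1 at 0.102, and next to Pspc1 came Etv5 at 0.112 and Parpbp at 0.114. For Hnrnpdl the nearest genes were Etv5 at 0.134, Ccl7 at 0.166 and Pspc1 at 0.173. Etv5 averaged 21.5, 20, 10.3 and 21 CPM and Tatdn1 29.9, 26.5, 17.1 and 29.6 CPM at 37 °C, 40 °C 1 h, then 40 °C 6 h, and 42.5 °C. For Fubp1 the nearest were Cnnm4 at 0.121, Eif4a2 at 0.123 and Msl1 at 0.125, and the helicase gene Eif4a2 averaged 257, 321, 430 and 253 CPM in the same order. With log2 CPM averaged per group instead, 0, 1, 3 and 0 of these 3 genes were still nearest to Hnrnpdl, Dhx9, Pspc1 and Fubp1, so the genes nearest to Hnrnpdl, Dhx9 and Fubp1 depend on the measure.

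Neighbours were taken from the RefSeq annotation of another Chinese hamster assembly, CriGri-PICRH-1.0, as the nearest named protein-coding genes on each side. Noncoding genes and genes with only a LOC symbol were skipped and may lie between, and distance was not measured. Hnrnpdl and Hnrnpd are next to each other in this order. The gene on the other side of Hnrnpdl, Enoph1, looked up after the values were seen, had log2 fold changes of 0.00 at 40 °C 1 h, -0.18 at 40 °C 6 h (where it passed, adjusted p = 0.0263 by edgeR) and -0.04 at 42.5 °C, beside -0.31, -1.36 and -0.28 for Hnrnpdl. Both neighbours of Pspc1 had values of the opposite sign to Pspc1 at 40 °C 6 h, Mphosph8 with 0.30 and Zmym5 with 0.36. At 40 °C 6 h Nudt4 beside Hnrnpd had 0.05, where Hnrnpd had -0.26, and Zmym3 beside Nono had 0.06, where Nono had -0.16. Other neighbours had values near those of their member, Cbx3 beside Hnrnpa2b1 with 0.14 at 42.5 °C (adjusted p = 0.0458 by edgeR), where Hnrnpa2b1 had 0.15, and with 0.15 at 40 °C 6 h, where Hnrnpa2b1 had 0.18, and Zmym4 beside Sfpq with 0.07 and 0.14, where Sfpq had 0.10 and 0.09. Nfe2l3, on the other side of Hnrnpa2b1, passed the filter on low counts only in comparisons that include 42.5 °C, where it was higher. Its log2 fold change of 2.62 at 42.5 °C against 37 °C is therefore given as a description, with no test. Canx beside Hnrnph1 rose by 0.33 at 40 °C 6 h (adjusted p = 5.63e-05 by edgeR), where Hnrnph1 had -0.15. Whether neighbours and members were regulated together was not tested. Beside Fubp1 lies Dnajb4, a heat-inducible co-chaperone gene, which rose by 0.88 at 42.5 °C (adjusted p = 7.87e-05 by edgeR), where Fubp1 had 0.07, and had 0.06 at 40 °C 6 h, where Fubp1 had 0.70.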

How the data were processed

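CLC Genomics Workbench was used by the authors for trimming, mapping to CHOK1GS_HDv1 and counting per gene, and the deposited read counts, whole numbers without normalization, were analysed here. The annotation release, the use of strand and how reads with several mapping places were handled are not given in the sources used here. Members and gene lists were chosen with earlier results of these data known. In R 4.3.3, edgeR 4.0.16 was fitted to all genes kept by filterByExpr in the libraries of 2 groups, with TMM, the quasi-likelihood test and Benjamini-Hochberg adjustment over all genes tested. Levels were scaled by TMM over 16 libraries. Ratios were tested by exact permutation of libraries, the two-sided p being 2 times the smaller tail. The alternatives were DESeq2 1.42.0 size factors or its Wald test, no filter, at least 10 counts in every library, all 4 controls, 1 fit over 4 groups, the replicate letter as a block, glmTreat (not counted in the ranges of adjusted p) and each library left out. The scripts were tested on simulated data. Named were all members, up to 3 genes of a list with the lowest adjusted p per comparison and its DEGs, and the 3 genes most like Hnrnpdl, Dhx9, Pspc1 and Fubp1 (prior count 2). A gene of the lists that this rule names is not reported here.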

Additional observations from a re-analysis of the deposited data

Results flagged for a closer look

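In 6 of 44 groups of 4 libraries examined, 1 library lay far from the other 3 relative to the group's range, which chance gives in about 1 in 20 groups. The groups are not independent, because the ratios reuse the members' counts. The flags of Pspc1 and of its share in 37 °C library C come from the same counts. The 6 flags are therefore not read as an excess. Hnrnpdl was at 183 CPM in library A at 40 °C 1 h, against 200.2 to 203.5 in the other libraries of that group. Hnrnpd was at 412 CPM in 37 °C library D, against 336 to 347, and this library was left out of the tests. Hnrnpa2b1 was at 1022 CPM in library B at 40 °C 1 h, against 1085 to 1096. Pspc1 was at 76.5 CPM in 37 °C library C, against 66.7 to 67.8, and its share of the DBHS counts was 6.20% there, against 5.40 to 5.48%. The log2 ratio of Hnrnpdl to Hnrnpd was -0.89 in library B at 42.5 °C, against -0.81 to -0.79.

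A pair of members differed between the temperatures at 1 h by the direct test. Dhx9 was higher at 42.5 °C than at 40 °C by 0.16 on the log2 scale (adjusted p = 0.00894 by edgeR), and Fubp1 differed by -0.30 (adjusted p = 0.000802 by edgeR). The cause of these differences was not tested.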

How the results depend on the processing

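No result changed direction with a call on either side. With all 4 controls, 4, 1122 and 1895 genes passed after 1 h and 6 h at 40 °C and at 42.5 °C against 37 °C, in place of 172, 3091 and 4510, and 3 were DEGs at 40 °C 1 h in place of 35. Of the 9 members, 0 in place of 2 then passed at 40 °C 1 h by edgeR (2 at an unadjusted p under 0.05, while DESeq2 was run without D and called 2) and 1 in place of 3 at 42.5 °C. At 40 °C 1 h, 323 genes passed with no filter and 107 in 1 fit over 4 groups. With glmTreat against a 1.5-fold change, 2, 31, 262 and 171 genes were DEGs after 1 h and 6 h at 40 °C, at 42.5 °C and between 42.5 °C and 40 °C at 1 h, in place of 35, 326, 786 and 550. With each library left out, 63 to 276 genes passed at 40 °C 1 h and 23 to 56 were DEGs. Between 42.5 °C and 40 °C at 1 h 2 to 4 members passed, with 4 when 42.5 °C library D was left out. The difference in the Pspc1 share between 42.5 °C and 37 °C ran from -0.368 to 0.0298.

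With the replicate letter as a block, 634 genes and 4 members passed at 40 °C 1 h, Dhx9 (-0.09, adjusted p = 0.0218 by edgeR) and Pspc1 (-0.16, adjusted p = 0.0338) in addition, and Hnrnpd passed at 42.5 °C against 37 °C (0.09, adjusted p = 0.0429). Over all alternatives the adjusted p ran from 0.0218 to 0.949, from 0.0338 to 0.926 and from 0.0429 to 0.997. The letters were not taken as pairs, and the sources used here do not say whether a letter marks cultures handled together. Over all groups, same-letter libraries correlated by a mean r of 0.052 over 21 pairs (from -0.045 to 0.18) and others by -0.017. Of 15 libraries, 5 correlated best with their own letter. A mean r over all groups cannot decide on pairing within 1 comparison. At 40 °C 1 h, where the block gave 634 genes in place of 172, pairing remains possible and was not tested. Of 135 alternative values of member fold changes per comparison, 129, 116 and 130 kept direction and side of the threshold at 40 °C 1 h, at 42.5 °C and between them. The causes of these shifts were not tested.

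The limits are few libraries, a control group that depends on 1 library, members chosen with results known, and bulk RNA. A fold change under 1.5 was the most any tested member showed. A p that misses the threshold does not show equal levels.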
